A study of Danio rerio with 17 samples.

Results

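Heat shock and immediate early genes were followed in RNA sequencing libraries of mural and endothelial cells sorted from zebrafish embryos. A gene was taken as a member if its symbol matched a chaperone pattern (hsp or dnaj), a heat shock factor pattern (hsf), or a pattern for the immediate early genes fos, fosl, jun, egr and atf3. The patterns were set with earlier results of these data known. The symbols alone chose the members, and they found 101 of the 30220 genes in the table. They divided into 51 J-domain proteins, 13 HSP70 genes, 11 AP-1 genes, 10 small heat shock genes, 5 EGR genes, 4 HSP90 genes, 4 heat shock factors, 2 mitochondrial chaperonins and 1 gene for an HSF2-binding protein. At least 1 read was found in every library for 89 of the 101 members.

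Cells were sorted by fluorescence from dissociated embryos of 3 transgenic lines, giving 17 libraries in 6 groups. In Tg(acta2:egfp), green fluorescent protein is driven by the promoter of the smooth muscle actin gene acta2, and 3 positive libraries of mural cells and 3 negative libraries were made at 4 days post fertilization. Tg(acta2:mcherry);(foxc1b:egfp) adds a reporter for the forkhead gene foxc1b and gave 2 positive and 3 negative libraries, also at 4 days, with the gated colors not given in the labels. Tg(kdrl:mcherry) reports the VEGF receptor gene kdrl and gave 3 positive libraries of endothelial cells and 3 negative libraries at 5 days; in this line the suspension was fixed before sorting. Every group, negative cells included, had been dissociated and sorted, so no group shows these genes in undisturbed tissue. The reporter promoters limit what a positive group is: acta2 is also used by visceral smooth muscle, and the negative groups hold all remaining cells of the embryo. The labels do not say that replicates came from separate clutches, so p-values measure only the spread between these libraries, which may be technical.

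Heat shock proteins are chaperones that bind unfolded proteins. Small heat shock proteins hold them in solution, J-domain proteins hand them to HSP70, which refolds them with ATP, and HSP90 completes the folding of signaling proteins and, in muscle, of myosin. Heat shock factors switch on the inducible members of these families within minutes of heat or other protein damage, and the products of fos, jun and egr genes are transcription factors whose RNA appears within minutes of growth factors, stretch or wounding and is short-lived. In mammalian tissues enzymatic dissociation is known to induce both programs.

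Libraries held 10474235 to 40868765 reads. Smooth muscle markers checked the labels of the mural groups: 10 of 12 tested rose in acta2 positive cells and 3 of 12 in acta2/foxc1b positive cells. In both groups these included acta2, whose promoter drives the reporter. All 21 endothelium markers rose in kdrl positive cells, together with 6 of 15 epidermis and 9 of 12 leukocyte markers and the smooth muscle markers myh11a and myl9a. Endothelium markers summed to 2041 to 6411 RPM, reads scaled to the total of the library, in kdrl positive libraries, against 227 to 341 RPM in the negative ones. Epidermis markers summed to 3654 to 25412 RPM in the kdrl positive libraries, which thus held more than endothelial RNA. Skeletal muscle markers summed to 13989 and 19326 RPM in acta2/foxc1b positive libraries, against 1298, 1035 and 1521 RPM in the negative ones. Smooth muscle markers summed to less in these positive libraries, from 6558 to 8973 RPM, against 81.8 to 298 RPM in the negative ones. One library stood apart, acta2/foxc1b negative replicate 2, whose mean correlation with its replicates was 0.673 across genes and whose epidermis markers summed to 60165 RPM. Its size factor gave 1.63 normalized counts per read, against 0.65 to 1.11 in the other libraries of the line, and 53.6% of the 97 members tested in that line had their highest normalized value in it (32.2% of all genes tested), while in RPM 19.6% of the members did (11.4% of all genes). Reads of mt-rnr2, a mitochondrial rRNA gene, made up 9.35 to 16.3% of each acta2 positive library, against 1.23 to 3.86% of the negative ones. The highest of these shares was in acta2 positive replicate 1. It also had the fewest genes with a read in its line, 23670, and 1.56 normalized counts per read, against 0.78 to 1.16 in the line's other libraries.

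Summed levels varied widely between libraries of the same group. The 16 AP-1 and EGR genes summed to 16339.9, 13892 and 1889 RPM in kdrl positive replicates 1 to 3, against 11513, 13516 and 1909 RPM in the kdrl negative ones. Replicate 3 was lowest in both sorts, and the highest and lowest libraries of the series were both of this line. In acta2 positive libraries the same sum was 3803, 7853 and 6964 RPM, against 7629, 8973 and 8702 RPM in acta2 negative libraries, and in the acta2/foxc1b line it was 9701 and 4429.8 RPM in positive and 9253, 6119 and 4938 RPM in negative libraries. In both acta2 lines the groups overlapped.

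Of 10 heat-inducible genes (the hsp70 copies, hsp90aa1.2, dnajb1a, dnajb1b, hspb1, hspb9 and hspa1b), 8 were found in the table, hsp70.2 and hspa1b not being matched. Their sum was 22659, 14826 and 12820.2 RPM in acta2 positive libraries, against 7114, 17212 and 9478 RPM in acta2 negative libraries. For the acta2/foxc1b line it was 8273 and 3114 RPM in positive libraries, against 8307, 15643 and 4347 RPM in negative libraries. The kdrl positive replicates had 1158, 14754 and 4438 RPM and the kdrl negative replicates 1157, 12486 and 4435 RPM. The groups overlapped in all 3 lines, and in the kdrl line the order of the replicates, 1 lowest and 2 highest, was the same in both sorts.

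**Figure D1:**
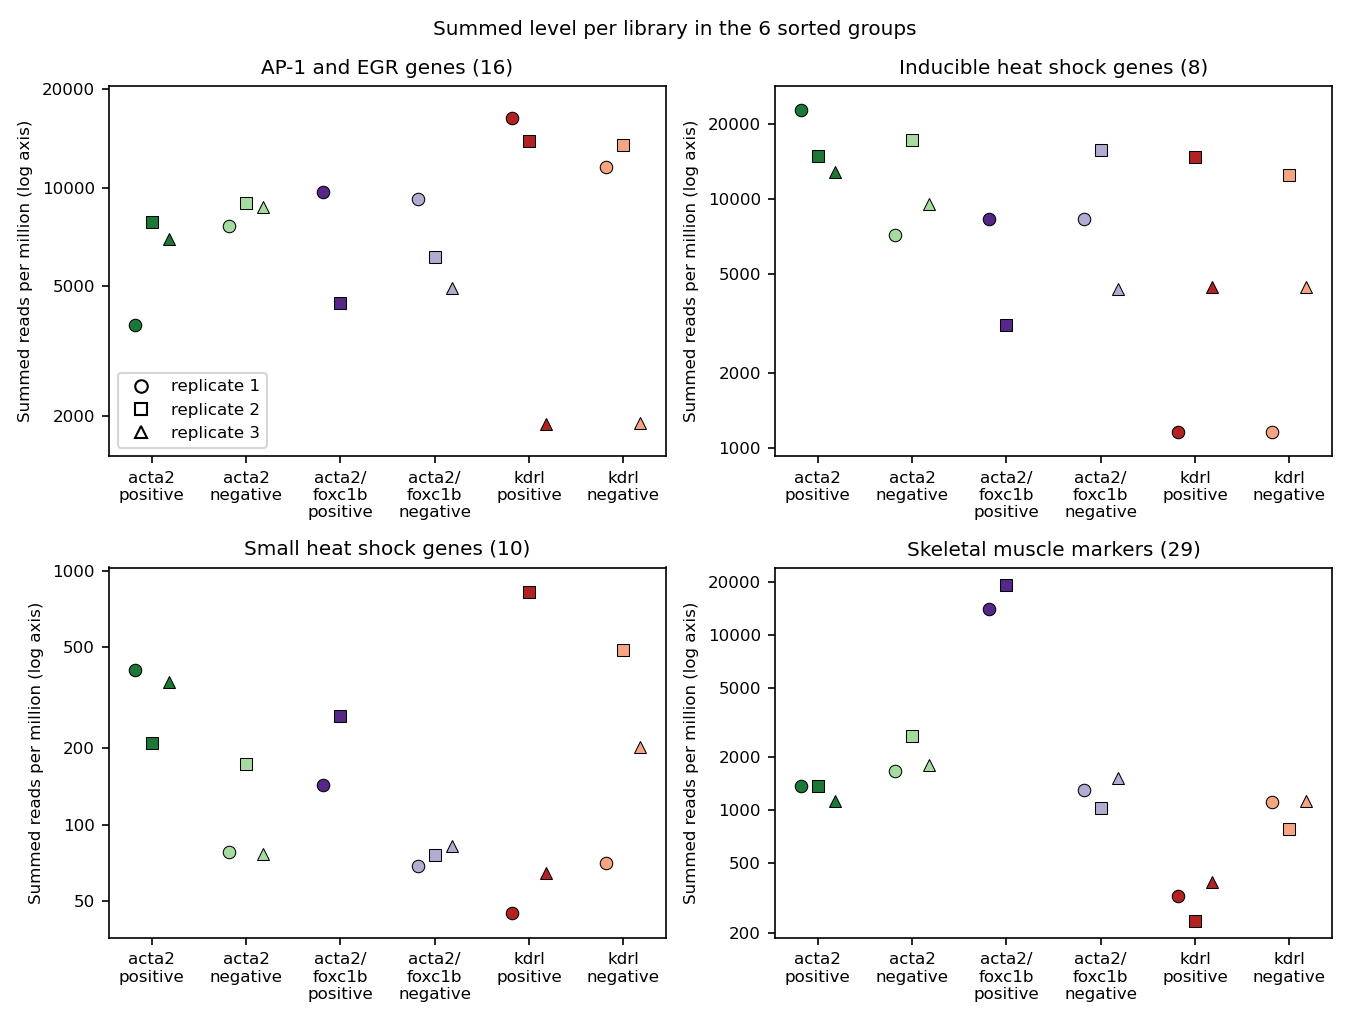
Summed RPM (log axis) per library for 16 AP-1 and EGR genes, 8 inducible heat shock genes, 10 small heat shock genes and 29 skeletal muscle markers; each point is a library, its shape the replicate number. In the kdrl line replicate 3 of both sorts lies lowest for the AP-1 and EGR genes (1889 RPM in positive and 1909 RPM in negative cells), and replicate 1 of both sorts lies lowest for the inducible heat shock genes.

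Positive were then compared with negative cells within each line, on log2(normalized read count + 1), where a normalized count is the deposited read count divided by the size factor of its library. Each log2 difference is given as positive minus negative with its standard error, and a member was called where its limma adjusted p over all genes tested was under 0.05. In bulk samples a gene that is lower in a group cannot be told apart between fewer cells of the type that uses it and less of its RNA per cell.

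In the acta2 line 94 members were tested, and 4 rose and 3 fell in positive cells. This was 7.45% of the members, near the 7.00% called over all genes tested (3.26% higher and 3.75% lower). Small heat shock genes led the members that rose: hspb8, hspb1 and hspb11, joined by the J-domain gene dnajb6b. Those that fell were the AP-1 gene junba, the HSP70-related gene hspa4l and the mitochondrial chaperonin hspe1. The positive and negative libraries did not overlap for 14 members that were higher and 16 that were lower, against 15.1% and 15.7% of all genes tested. The counts of members and of all genes called both moved with single libraries. Leaving out positive replicate 3 left 2 members called (2.91% of all genes), negative replicate 1 left 2 (3.62%), negative replicate 2 left 1 (1.33%) and negative replicate 3 left 0 (1.85%). It was 4 with the replicate number as a block, beside 5.08% of all genes, 12 with DESeq2 on the recovered reads, beside 15.0%, and 1 when all 11 libraries of both acta2 lines were fitted together, beside 1.33%.

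Limma called 0 of 97 members in the acta2/foxc1b line, beside 0.0271% of all genes tested. An unadjusted p under 0.05 was reached by 15 members and by 2532 of all 22116 genes. edgeR on the recovered reads also called 0, beside 0.00% of all genes, with 13 members and 2723 of all genes at an unadjusted p under 0.05. DESeq2 called 9, beside 7.89% of all genes. Among them hspb2, hspb3 and hspb7 passed the filter on low values only through the positive libraries, and hsf4 only through the negative ones. The filter thus fixed the direction of these genes. Without negative replicate 2, the library that stood apart, limma called 4: hspb2, hspb8 and hspb11 were higher and hspa4l lower in positive cells. These were 4.12% of the members, near the 3.57% of all genes called in that fit. The direction of hspb2 was fixed by the filter there too. The groups did not overlap for 13 members that were higher and 10 that were lower, against 14.8% of all genes in each direction.

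For the kdrl line limma called 0 of 100 members, beside 5.96% of all genes. An unadjusted p under 0.05 was reached by 16 members and by 5830 of all 24903 genes. edgeR called 0, beside 6.04% of all genes, with 12 members and 5617 of all genes at an unadjusted p under 0.05. DESeq2 called 6, all higher, beside 15.2% of all genes (7.61% higher). Here libraries of the same number were taken as pairs, since their deviations from the group means correlated in these same values (0.475, 0.128 and 0.422). The labels do not give this pairing. With the number as a block limma called 10 members, 8 higher and 2 lower, beside 13.5% of all genes (7.08% higher and 6.41% lower). The members that rose with the block were the HSP70 genes hspa14, hspa12b and hspa4a, the J-domain genes dnaja2, dnajc2 and dnajc5gb, and the AP-1 genes fosl2 and junba, and those that fell were hsp90aa1.1 and dnajb4. The unblocked call count was 4 without positive replicate 2, where dnajc5gb was higher and dnajb4, dnajc6 and hspa4l were lower, 3.96% of the members beside 5.17% of all genes. Without all of pair 1, 2 or 3, alternatives chosen after seeing the data, 0 members were called, beside 0.234%, 1.02% and 5.29% of all genes. In these fits 2, 13 and 12 members had an unadjusted p under 0.05, beside 3515 of 24382, 4336 of 25386 and 4589 of 25504 genes. Without overlap, 15 members were higher and 3 lower, against 15.3% and 14.2% of all genes.

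**Figure D2:**
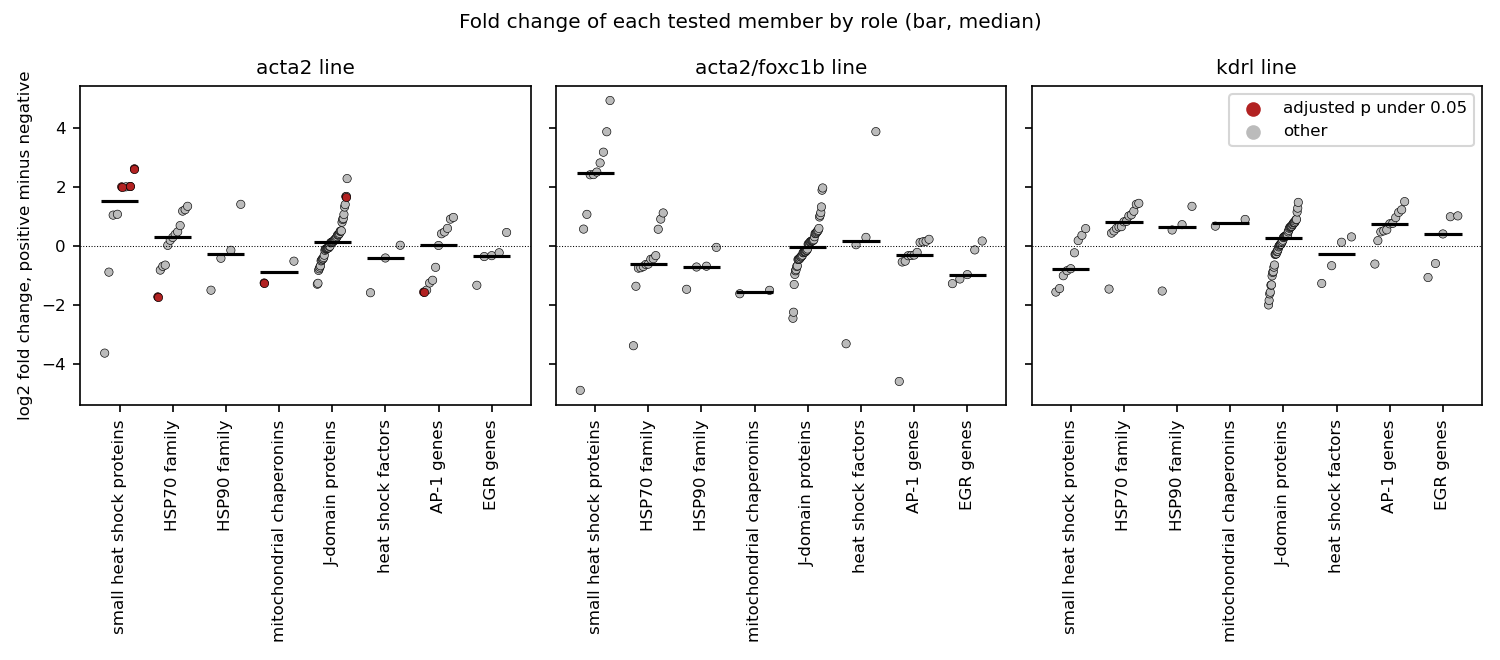
Log2 difference, positive minus negative, of each tested member in the 3 lines, by role; a bar marks the median of a role and red points have an adjusted p under 0.05 in limma without a block. In the acta2 line 7 points are red and in the other lines none is. The small heat shock genes have medians of 1.52 in the acta2 line, 2.45 in the acta2/foxc1b line and -0.78 in the kdrl line. In the acta2/foxc1b line hspb2, hspb3 and hspb7 passed the filter on low values only through the positive libraries.

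The member with the highest log2 difference was a small heat shock gene in both acta2 lines, hspb8 in the acta2 line and hspb2 in the acta2/foxc1b line. In the acta2/foxc1b line hspb2 passed the filter on low values only through the positive libraries. In the acta2 line 3 of 8 small heat shock genes tested rose, beside 3.26% of all genes called higher. A difference above 0 was found for 6 of 8, with a median of 1.52 beside -0.06 over all genes tested. The 8 leave out hspb6 and hspb2, which were too low to be tested, and hspb2 lay lower in each positive library. hspb8, whose mammalian counterpart works with the co-chaperone BAG3 in clearing damaged filaments of stretched muscle, had 737, 366 and 415 normalized counts in acta2 positive libraries, against 58.2, 149 and 55.7 in acta2 negative libraries. All 3 positive libraries exceeded all 3 negative ones, and hspb8 rose by 2.60 ± 0.50 (adjusted p = 0.0190).

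hspb1, the heat-inducible small chaperone that in mammals also binds actin, had 13415, 4153 and 7764 normalized counts in acta2 positive libraries and 1463, 3541 and 1332 in the negative ones. The groups did not overlap, though positive replicate 2 lay close to negative replicate 2, and hspb1 rose by 1.99 ± 0.50 (adjusted p = 0.0477). hspb11 had 830.4, 231 and 518 in positive and 89.2, 160.1 and 106 in negative libraries, again without overlap, and rose by 2.0 ± 0.51 (adjusted p = 0.0487). hspb1 and hspb11 were each called without positive replicate 2 and missed the threshold without each of the other 5 libraries of the line, with adjusted p up to 0.155 for hspb1 and up to 0.138 for hspb11. hspb8 was called without 3 of the 6 and reached an adjusted p of 0.0739 at most. Its call was lost without positive replicate 3, negative replicate 1 or negative replicate 3. Beyond the left-out libraries, hspb1 missed the threshold without the filter on low values (adjusted p = 0.0511), with edgeR (0.0619), with the block (0.0876) and with all 11 libraries in one fit (0.222). hspb11 missed it without the filter (0.0530), with the block (0.0882) and with all 11 libraries (0.167).

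hspb7, known in mammals from heart and skeletal muscle, had 96.95, 43.00 and 27.3 normalized counts in acta2 positive libraries and 13.6, 10.9 and 10.1 in negative libraries. It was higher in each positive library, but its difference of 1.99 ± 0.69 did not pass (adjusted p = 0.120). hspb15 lay the other way, at 0, 41.8 and 4.20 in positive and 46.4, 85.5 and 106 in negative libraries, with a difference of -3.65 ± 1.23 (adjusted p = 0.112). hspb9, hspb3 and hspb12 overlapped between the groups, at 1.03, 1.06 and -0.90, with adjusted p from 0.419 to 0.645. hspb2 and hspb6 were too low to be tested in this line. hspb2 had 0, 1 and 3 reads in positive and 11, 11 and 13 in negative libraries.

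Of 10 small heat shock genes tested in the acta2/foxc1b line, 9 had a difference above 0, with a median of 2.45 beside -0.11 over all genes tested, and none passed limma. Among these genes hspb2, hspb3 and hspb7 reached the filter value of 10 only in the positive libraries. The filter thus fixed their direction, and they add no support to the count or the median. hspb2, which in mammals is a muscle gene whose product binds HSPB3, had 98.9 and 279 normalized counts in positive libraries, against 6.96, 1.63 and 7.12 in negative libraries. Its difference of 4.92 ± 1.09 had an adjusted p of 0.153 in limma; DESeq2 gave 3.81e-05. hspb8 had 824 and 1989 in positive and 144, 379 and 214 in negative libraries, a difference of 2.49 ± 0.69 (adjusted p = 0.239).

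hspb11 stood at 374 and 501 normalized counts in acta2/foxc1b positive libraries and 45.7, 158 and 31.7 in negative libraries, 2.80 ± 0.87 apart (adjusted p = 0.288). hspb7 stood at 35.6 and 119 and 8.51, 0 and 9.06 in positive and negative libraries, hspb6 at 147 and 43.3 and 14.7, 14.6 and 13.6, and hspb3 at 24.9 and 62.2 and 6.19, 1.63 and 3.88. In hspb2, hspb3, hspb6, hspb7, hspb8, hspb9 and hspb11 both positive libraries exceeded all 3 negative libraries. For hspb2, hspb3 and hspb7 this order was fixed by the filter. hspb1 overlapped, at 1326 and 3937 in positive and 605, 3529 and 619 in negative libraries, as did hspb12. hspb15 was again lower in positive cells, at 20.5 and 0, against 262, 27.6 and 358 in negative cells, with an adjusted p of 0.331.

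Without negative replicate 2 the differences of hspb2, hspb8 and hspb11 in the acta2/foxc1b line were 4.38, 2.86 and 3.47 with adjusted p of 0.0478, 0.0497 and 0.0329. Several small heat shock proteins are abundant in skeletal muscle, and skeletal muscle markers moved with them here: all 29 had a difference above 0 in the acta2/foxc1b line with 0 called, none of them was at 0 in any library, and their sums, given above, did not overlap. Their part in the small heat shock differences of this line was not tested. In the acta2 line the skeletal muscle markers summed to 1371, 1367 and 1131 RPM in positive libraries and 1664, 2647 and 1802 RPM in negative libraries. In RPM they were thus lower in every positive library, where hspb8, hspb1 and hspb11 rose on the normalized scale. On the normalized scale the marker sums overlapped between the groups.

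Cardiac muscle markers also moved with the small heat shock genes. In acta2 positive cells 3 of 10 rose, the heart myosin light chain gene myl7 (4.37 ± 0.65 (adjusted p = 0.00790)), the troponin gene tnnt2a (3.35 ± 0.55 (adjusted p = 0.0115)) and the natriuretic peptide gene nppa (3.76 ± 0.83 (adjusted p = 0.0311)), and 8 of 10 had a difference above 0, with a median of 2.11. Their summed level overlapped, at 130.4, 131 and 185 RPM in acta2 positive libraries, against 243, 222 and 115 RPM in acta2 negative libraries, and most of it was actc1a, a cardiac actin gene. For the acta2/foxc1b line 9 of 10 were above 0 with a median of 2.78 and 0 called, and the sums were 614 and 845 RPM in positive libraries, against 92.9, 35.5 and 130.5 RPM in negative libraries. 1 of the 10 markers was at 0 in 1 library, acta2/foxc1b negative replicate 3, and none was in the others of these lines. Their part in the small heat shock differences was not tested.

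In kdrl positive cells 3 of 9 small heat shock genes tested had a difference above 0, with a median of -0.78. hspb7 had 13.2, 6.83 and 6.81 normalized counts in kdrl positive libraries, against 35.8, 19.4 and 29.7 in kdrl negative libraries, lower in each positive library, with a difference of -1.58 ± 0.69 (adjusted p = 0.205). hspb11 overlapped by 1 library on this scale, at 13.7, 39.6 and 54.5 in positive and 53.3, 90.05 and 55.2 in negative libraries, while in RPM each kdrl positive library was below each negative one. hspb8 overlapped too, at 125, 544 and 95.4 in positive and 126, 268 and 136 in negative libraries, with replicate 2 highest in both sorts.

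**Figure D3:**
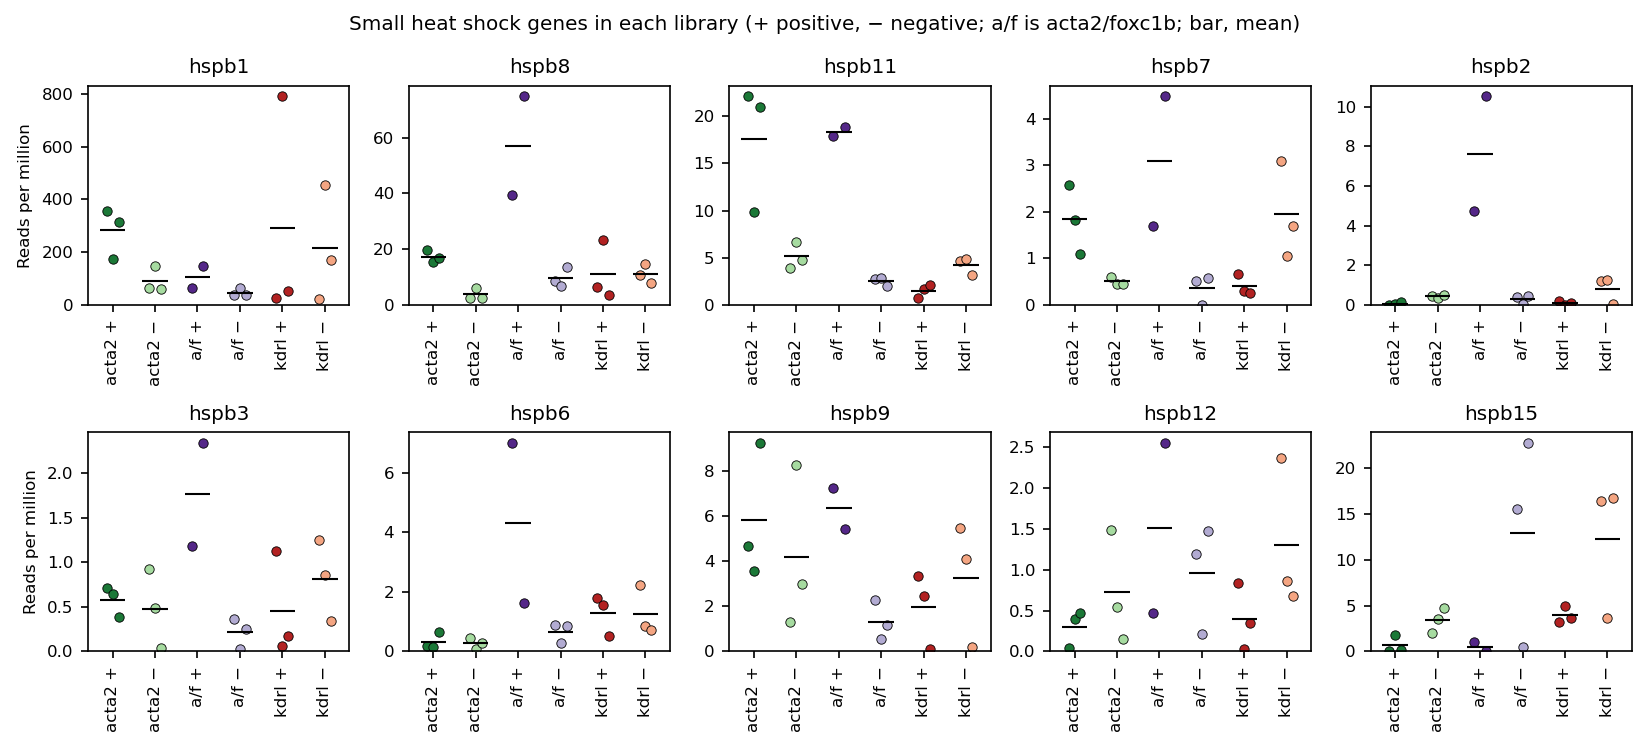
RPM (linear axis from 0) of the 10 small heat shock genes in every library; points are libraries and bars group means. hspb8 and hspb11 lie higher in positive than in negative libraries of both acta2 lines, hspb2 stands out in the 2 acta2/foxc1b positive libraries, and hspb1 reaches 792 RPM in kdrl positive replicate 2 and 455 RPM in kdrl negative replicate 2.

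The inducible HSP70 genes were abundant in every group and were not called in any line. hsp70l had 241925, 92049 and 83105 normalized counts in acta2 positive libraries, against 31401, 108059 and 48180.1 in acta2 negative libraries, which overlapped (1.17 ± 0.59, adjusted p = 0.264). All 8 inducible heat shock genes had a difference above 0 in the acta2 line, with a median of 1.19, but only hspb1 passed, beside 3.26% of all genes called higher. Of the same 8, 3 were above 0 in the acta2/foxc1b line, with a median of -0.55, and 7 in the kdrl line, with a median of 0.56. hsp70.1, hsp70.2 and hsp70.3 are neighbors in the RefSeq annotation of GRCz12tu and near-identical, as are hsp90aa1.1 and hsp90aa1.2, so how reads were split among the copies is uncertain.

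hsp90aa1.2, the stress-inducible HSP90 copy of zebrafish, had 58259, 20747 and 35770.1 normalized counts in acta2 positive and 7293, 22056 and 14717 in acta2 negative libraries. Negative replicate 2 exceeded positive replicate 2, and the difference of 1.40 ± 0.50 did not pass (adjusted p = 0.131). dnajb1b, the main inducible J-domain partner of HSP70, had 166095, 90014 and 48858 in positive and 16003, 47260.2 and 53728 in negative libraries, overlapping as well (1.39 ± 0.59, adjusted p = 0.191). dnajb1a was at 618, 292 and 387 in positive and 327, 158 and 201 in negative libraries.

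The other copy, hsp90aa1.1, which zebrafish skeletal muscle needs for myosin folding, had a difference of the opposite sign. It had 2141, 1023 and 1046 normalized counts in acta2 positive libraries, against 2643, 6264 and 3226 in acta2 negative libraries. The level was lower in each positive library, and its difference of -1.51 ± 0.42 missed the threshold (adjusted p = 0.0638), which it passed with DESeq2, with quantile normalization and without positive replicate 1. Among kdrl libraries it had 72.4, 921 and 118 in positive and 241, 1683 and 488 in negative cells: replicate 2 was highest in both sorts, and within each number the positive library was the lower one. Its difference of -1.54 ± 0.91 had an adjusted p of 0.333 without and 0.0183 with the block. Skeletal muscle markers moved with it in the kdrl line, 5 of 29 falling in kdrl positive cells beside 2.79% of all genes called lower. In the acta2 line their sums in RPM, given above, were also lower in every positive library, but they overlapped on the normalized scale. The markers did not move with hsp90aa1.1 in the acta2/foxc1b line, where their sums lay higher in both positive libraries. There hsp90aa1.1 overlapped, at 1576 and 2050 reads in positive and 3956, 1284 and 5937 in negative libraries. The part of these markers was not tested.

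The constitutive cytosolic chaperones were among the most highly counted members. hspa8, the HSP70 that every cell uses, had 19276, 23198 and 31042 RPM in acta2 positive libraries, against 37973, 79849.7 and 46894 RPM in acta2 negative libraries. It had 29813 and 16253 RPM in acta2/foxc1b positive and 27409, 94982 and 14117 RPM in acta2/foxc1b negative libraries, so that negative replicate 2 alone held the highest level of the series. In kdrl positive libraries hspa8 had 7481, 6025 and 6219 RPM, against 2777, 4854 and 3504 RPM in kdrl negative libraries, higher in every positive library.

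The differences of hspa8 on the normalized scale were -0.83 ± 0.63 in the acta2 line (adjusted p = 0.459), -0.64 ± 2.04 in the acta2/foxc1b line (0.944) and 1.43 ± 0.70 in the kdrl line (0.246). DESeq2 called it higher in kdrl positive cells (adjusted p = 0.0213), and quantile normalization called it lower in acta2 positive cells (0.0361). hsp90ab1, the constitutive HSP90, had 130982, 138406 and 177049 normalized counts in kdrl positive libraries, against 33153, 88802 and 68748 in kdrl negative libraries, with a difference of 1.33 ± 0.70 (adjusted p = 0.281 in limma and 0.0356 in DESeq2).

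HSP70-related genes outside the core copies gave calls in the acta2 line and, with the block, in the kdrl line. hspa4l, a member of the HSP110 branch that recharges HSP70 with nucleotide, had 78.2, 73.2 and 70.29 normalized counts in acta2 positive libraries, against 196, 310.1 and 254 in acta2 negative libraries. It fell in positive cells (-1.74 ± 0.39, adjusted p = 0.0335), without overlap. In acta2/foxc1b positive libraries it had 70.4 and 26.7, against 390.0, 423 and 616 in the negative ones, with a difference of -3.40 ± 0.70 (adjusted p = 0.141 in limma, 0.0477 without negative replicate 2 and 0.00170 in DESeq2). It overlapped in the kdrl line, at 94.4, 381 and 52.2 in positive and 412, 344 and 291 in negative libraries, where positive replicate 2 was high. The acta2 call was kept without positive replicate 1 and lost without each of the other 5 libraries, with adjusted p up to 0.152, as well as with the block (0.0703) and with all 11 libraries in one fit (0.110).

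hspa14 had 1195, 1114 and 1605 normalized counts in kdrl positive libraries, against 313, 618 and 602 in kdrl negative libraries, all positive libraries above all negative ones. Its human counterpart sits on the ribosome together with DNAJC2 and acts on new protein chains. Its difference of 1.40 ± 0.37 had an adjusted p of 0.0527 without and 0.0194 with the block. dnajc2 itself had 513, 400.2 and 649 in kdrl positive and 181, 265 and 259.7 in kdrl negative libraries, also without overlap, with a difference of 1.14 ± 0.34 (adjusted p = 0.0814 without and 0.0403 with the block).

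hspa12b, an HSP70 relative enriched in mammalian endothelium, had 989, 2522 and 986 normalized counts in kdrl positive libraries and 371, 943 and 623 in kdrl negative libraries. The positive library was the higher one in each pair, and the difference of 1.16 ± 0.47 had an adjusted p of 0.175 without and 0.0301 with the block. hspa4a, an HSP110 gene, had 2066, 17845 and 1824 in positive and 736, 11358 and 920.0 in negative libraries, again with replicate 2 highest in both sorts (1.04 ± 1.08, adjusted p = 0.579 without and 0.0440 with the block). Without kdrl positive replicate 2 the unblocked difference of hspa4a was -0.02 (adjusted p = 0.991).

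Mitochondrial chaperonins form a ring (hspd1) and its lid (hspe1). hspe1 had 1079, 867 and 780.5 normalized counts in acta2 positive libraries, against 2781, 1859 and 1977 in acta2 negative libraries, and fell in positive cells without overlap (-1.27 ± 0.29, adjusted p = 0.0351). That call was kept without positive replicate 1 and lost without each of the other 5 libraries, with adjusted p up to 0.117, and with all 11 libraries in one fit (0.172). hspd1, its neighbor in the annotation, overlapped at 1776, 2064 and 2501 in positive and 1877, 4369 and 3365 in negative libraries (-0.53 ± 0.35, adjusted p = 0.400). Both lay lower in acta2/foxc1b positive than in negative cells, hspe1 by -1.52 ± 0.63 (adjusted p = 0.429) and hspd1 by -1.63 ± 0.86 (0.563), and in the kdrl line both had differences above 0 that did not pass. The mitochondrial HSP70 gene hspa9 and the endoplasmic reticulum chaperones hspa5 and hsp90b1 were not called in any line, with log2 differences from -0.75 to 0.81.

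Of 48 J-domain genes tested in the acta2 line, 1 rose, beside 3.26% of all genes called higher. The median difference over these J-domain genes was 0.11. dnajb6b, whose human counterpart suppresses aggregation and is mutated in a muscular dystrophy, had 798, 784 and 673 normalized counts in acta2 positive libraries, against 238, 246 and 227 in acta2 negative libraries. The groups lay far apart with little spread, and dnajb6b rose by 1.66 ± 0.29 (adjusted p = 0.0142). Without negative replicate 2 or 3 its adjusted p was 0.0603 and 0.0639, and with all 11 libraries in one fit 0.374. It overlapped in the acta2/foxc1b line, at 735 and 4325 in positive and 272, 3155 and 433 in negative libraries, where negative replicate 2 was high, and in the kdrl line it overlapped too. Its paralog dnajb6a had a difference of -0.52 ± 0.38 in the acta2 line (adjusted p = 0.451).

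dnajb5 had 1401, 426 and 404 normalized counts in acta2 positive libraries and 66.4, 159 and 200.1 in acta2 negative libraries. It was the J-domain gene with the highest difference in both acta2 lines, 2.27 ± 0.59 (adjusted p = 0.0523) and, in the acta2/foxc1b line, 1.95 ± 0.65 (0.316). dnajb9b, a J-domain partner of HSP70 in the endoplasmic reticulum, followed with 1.66 and 1.88, at adjusted p of 0.171 and 0.285. At the low end were dnajc30b (-1.31) and dnajc25 (-1.28) in the acta2 line and dnajc6 (-2.47), the neuronal auxilin that uncoats clathrin vesicles, and dnajc16 (-2.26) in the acta2/foxc1b line, none of them called.

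dnaja2, a general HSP70 partner, had 4022, 4976 and 2877 normalized counts in kdrl positive libraries, against 1404, 1812 and 1617 in kdrl negative libraries, without overlap. Its difference of 1.27 ± 0.35 had an adjusted p of 0.0591 without and 0.0215 with the block. dnajc5gb had 656, 277 and 892 in positive and 129, 207 and 289 in negative libraries, overlapping through positive replicate 2 (1.46 ± 0.48, adjusted p = 0.106 without and 0.0415 with the block). dnajb4 was lower in the positive library of each pair, at 19.1, 196 and 24.98 in positive and 118, 252 and 162 in negative libraries (-1.86 ± 0.77, adjusted p = 0.183 without and 0.0455 with the block). dnajc5b at -2.01 and dnajc11 at -1.64 had the other most negative differences and were not called.

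Heat shock factors, which bind DNA as trimers and switch the inducible chaperones on, were not called in any line. hsf1, the main factor of the response, had 2724, 2182 and 2584 normalized counts in acta2 positive libraries and 1734, 3384 and 2565 in acta2 negative libraries, a difference of 0.01 ± 0.31. hsf1 had 1042, 1521 and 1131 in kdrl positive and 901, 1398 and 1129 in kdrl negative libraries, with replicate 1 lowest and replicate 2 highest in both sorts, and hsf2 had the same order. In RPM hsf1 was instead lowest in replicate 3 of both sorts, while hsf2 kept its order. hsf4, known from the lens, had 1.78 and 1.11 in acta2/foxc1b positive and 36.4, 16.3 and 21.4 in acta2/foxc1b negative libraries (adjusted p = 0.315 in limma and 0.0419 in DESeq2). There hsf4 passed the filter only through the negative libraries. Lens markers moved with it, all 13 lying below 0 there and 13 of 13 falling in the acta2 line, and their part was not tested. hsf5, a germline gene in mammals, lay the other way, at 57.9 and 22.2 normalized counts in acta2/foxc1b positive libraries, against 6.19, 0 and 1.29 in the negative ones. Both positive libraries were above the negative ones, from 65 and 20 reads against 8, 0 and 2, and the difference of 3.86 ± 1.35 did not pass (adjusted p = 0.342). Since hsf5 passed the filter only through those positive libraries, the filter fixed its direction. hsf2bp, also a germline gene in mammals, had 0 to 32 reads a library.

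Of the 16 AP-1 and EGR genes, 1 fell and none rose in the acta2 line, beside 3.75% of all genes called lower and 3.26% called higher. There 7 of 16 had a difference above 0 and the median was -0.29. junba, a JUN partner in the AP-1 dimer, had 5149, 3773 and 5434 normalized counts in acta2 positive libraries, against 13957, 14189.7 and 14159 in acta2 negative libraries. The 3 negative libraries were within a narrow range and all above the positive ones, and junba fell by 1.58 ± 0.28 (adjusted p = 0.0137). Without negative replicate 2 or 3 the adjusted p was 0.0602 and 0.0629, and with all 11 libraries in one fit 0.444. Its paralog junbb lay the same way, at 8052, 9460.3 and 9103 in positive and 30826, 19206 and 13532 in negative libraries, and did not pass (-1.18 ± 0.35, adjusted p = 0.0806; 0.0208 in DESeq2).

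No fos gene was called in the acta2 line. fosab, the counterpart of mammalian FOS and the most highly counted AP-1 gene, had 75206, 114931 and 101447 normalized counts in acta2 positive and 75144, 105600.0 and 110047 in acta2 negative libraries, a difference of 0.0 ± 0.39 (adjusted p = 0.998). fosl1a was higher in each positive library, at 3975, 3134 and 3021, against 2187, 1406 and 1899.7 in negative libraries (0.90 ± 0.29, adjusted p = 0.0977). atf3, a stress-induced repressor, had 6388, 8794 and 12370.3 in positive and 2947, 5597 and 5805 in negative libraries, also without overlap (0.95 ± 0.37, adjusted p = 0.158). In RPM atf3 did overlap, with positive replicate 1 below negative replicates 2 and 3. The remaining AP-1 genes, fosb, fosl2, fosl1b, jun, jund and fosaa, had differences from -1.51 for fosaa to 0.58 for fosl2, with adjusted p from 0.222 to 0.800. Among them jun was lower in each positive library, from 13872, 18828 and 21837 reads, against 39340, 66300 and 32408 reads in the negative ones.

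Among the EGR genes, zinc finger factors of the same early response, egr1 had 4294, 3117 and 2349 normalized counts in acta2 positive and 1272, 3516 and 2798 in acta2 negative libraries (0.44 ± 0.42, adjusted p = 0.557). egr4 was lowest of the 5 by its difference, -1.35 ± 0.50 (adjusted p = 0.138), and egr2a, egr2b and egr3 lay from -0.37 to -0.24. Of the 16 AP-1 and EGR genes, 5 had a difference above 0 in the acta2/foxc1b line, with a median of -0.33 and none called. fosaa was the lowest there, at 64.1 and 0 in positive and 126, 332 and 179 in negative libraries (-4.61 ± 1.69, adjusted p = 0.365).

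AP-1 and EGR genes of the kdrl line divided by replicate number rather than by sort. fosb, an AP-1 gene with very low basal RNA, had 33540.3, 31011 and 527 normalized counts in kdrl positive replicates 1, 2 and 3, against 10586, 21239 and 510.1 in kdrl negative replicates 1, 2 and 3. egr2a had 5807, 2554 and 116 in positive and 1072, 2371 and 88.3 in negative libraries. junba had 39009.9, 37001 and 1909.8 in positive and 13032, 22019 and 931 in negative libraries. In all 3 genes replicate 3 was the lowest library of both sorts.

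The same held for 14 of the 16 AP-1 and EGR genes, or 87.5%, against 17.2% of all genes tested in that line. The exceptions were fosl1b and jund, which had few reads: jund had 202, 87.4 and 173 normalized counts in positive and 86.1, 95.3 and 28.9 in negative libraries. In RPM it was also 14 of 16, beside 23.7% of all genes. Replicates 1 and 2 together averaged 7.59 times replicate 3 in positive cells, as the median over the 16 genes, with a range of 0.65 to 61.3, and 5.86 times in negative cells, with a range of 0.88 to 31.2. These folds describe libraries and carry no test, since each number has 1 library a sort.

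**Figure D4:**
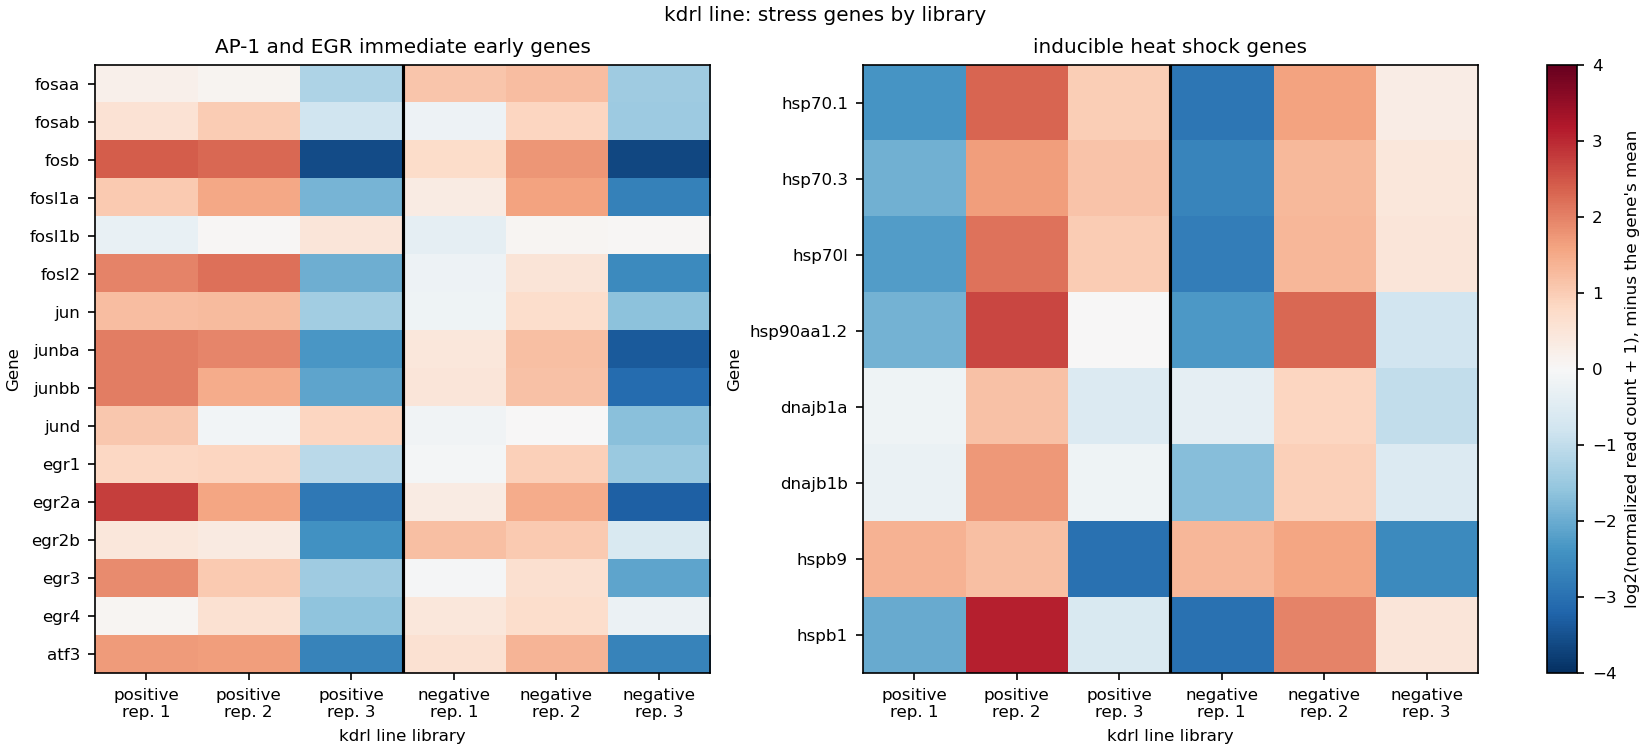
Log2(normalized read count + 1) minus the mean of the gene, in the 3 positive (left) and 3 negative (right) libraries of the kdrl line, for the 16 AP-1 and EGR genes and the 8 inducible heat shock genes; red is above and blue below the mean of the gene. Replicate 3 is blue in both sorts for most AP-1 and EGR genes, and replicate 1 is blue and replicate 2 red in both sorts for most inducible heat shock genes.

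The inducible heat shock genes of the kdrl line divided by number too, but not in the same order. hsp70.1 had 2487, 63064 and 25013 normalized counts in kdrl positive replicates 1, 2 and 3, against 1717, 38966 and 15479 in kdrl negative replicates 1, 2 and 3. hsp90aa1.2 had 4961, 116221 and 18309.9 in positive and 3719.5, 89149.8 and 10636 in negative libraries. hspb1 had 533, 18594 and 1417 in positive and 272, 8411 and 2989 in negative libraries. Replicate 1 was lowest and replicate 2 highest in each of them, in both sorts.

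Of the 8 inducible genes, 7 were highest in replicate 2 of both sorts, or 87.5%, against 10.9% of all genes tested, and 6 were lowest in replicate 1 of both sorts, or 75%, against 21.1%. dnajb1a and hspb9 were instead lowest in replicate 3, and hspb9, at 66.5, 58.1 and 2.27 in positive and 63.2, 75.9 and 3.40 in negative libraries, was the one not highest in replicate 2 of both. In RPM the counts were 7 and 5 of 8, beside 3.52% and 5.61% of all genes. Replicates 2 and 3 together averaged 11.9 times replicate 1 in positive cells (median over the 8 genes, range 0.45 to 18.8) and 12.7 times in negative cells (0.63 to 21.0). Replicate 1 thus held high AP-1 and EGR levels with low inducible heat shock levels, replicate 2 held high levels of both, and replicate 3 held low AP-1 and EGR levels with intermediate levels of the hsp70 genes.

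Other genes of the pathways, from lists of early response genes and chaperone partners that are not members, lay in the same order for the most part. The lists were written with earlier results of these data known. Of 39 other immediate early genes, 29 were lowest in replicate 3 of both sorts, or 74.4%, and of 21 co-chaperones and HSP90 partners 16 were highest in replicate 2 of both sorts, or 76.2%. The 8 subunits of the cytosolic chaperonin ring did not: 7 were lowest in replicate 1 of both sorts but 0 were highest in replicate 2, and in RPM 1 was lowest in replicate 1. Of the 100 members tested, 33 were lowest in replicate 1, 31 lowest in replicate 3 and 32 highest in replicate 2 of both sorts, against 21.1%, 17.2% and 10.9% of all genes. Epidermis markers summed to 25412, 3654 and 19159 RPM in kdrl positive and 1808, 2437 and 4243 RPM in kdrl negative replicates 1, 2 and 3, and leukocyte markers to 1449, 743 and 2209 RPM in positive and 109.8, 169 and 259.9 RPM in negative replicates. Leukocyte sums were highest in replicate 3 of both sorts, and their part in the order of the stress genes was not tested. What differed in the handling of the numbered pairs is not given in the labels and cannot be told apart from the pair itself.

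How much of each gene's variation over the 6 libraries of a line lay between sorts and how much between replicate numbers gave the same division for AP-1, EGR and inducible genes. A line has more numbers than sorts, so numbers take the larger share where neither has an effect. The medians over all genes are the values to compare with. For the 16 AP-1 and EGR genes of the kdrl line the median was 8.69% between positive and negative cells and 87.6% between numbers, and for the 8 inducible genes it was 2.81% and 96.8%. Over all genes tested in the line these medians were 31.3% and 39.2%, and for 21 endothelium markers 94.4% and 1.77%. For small heat shock genes they were 22.3% and 44.7%, nearer the medians over all genes.

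The acta2 line, where numbers did not pair the libraries, did not show this division. There the medians between sorts and numbers were 40.9% and 41.2% for AP-1 and EGR genes, 42.9% and 9.17% for inducible genes and 62.7% and 9.49% for small heat shock genes, beside 29.7% and 27.3% over all genes tested. These shares are descriptions of 6 libraries a line and were not tested.

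**Figure D5:**
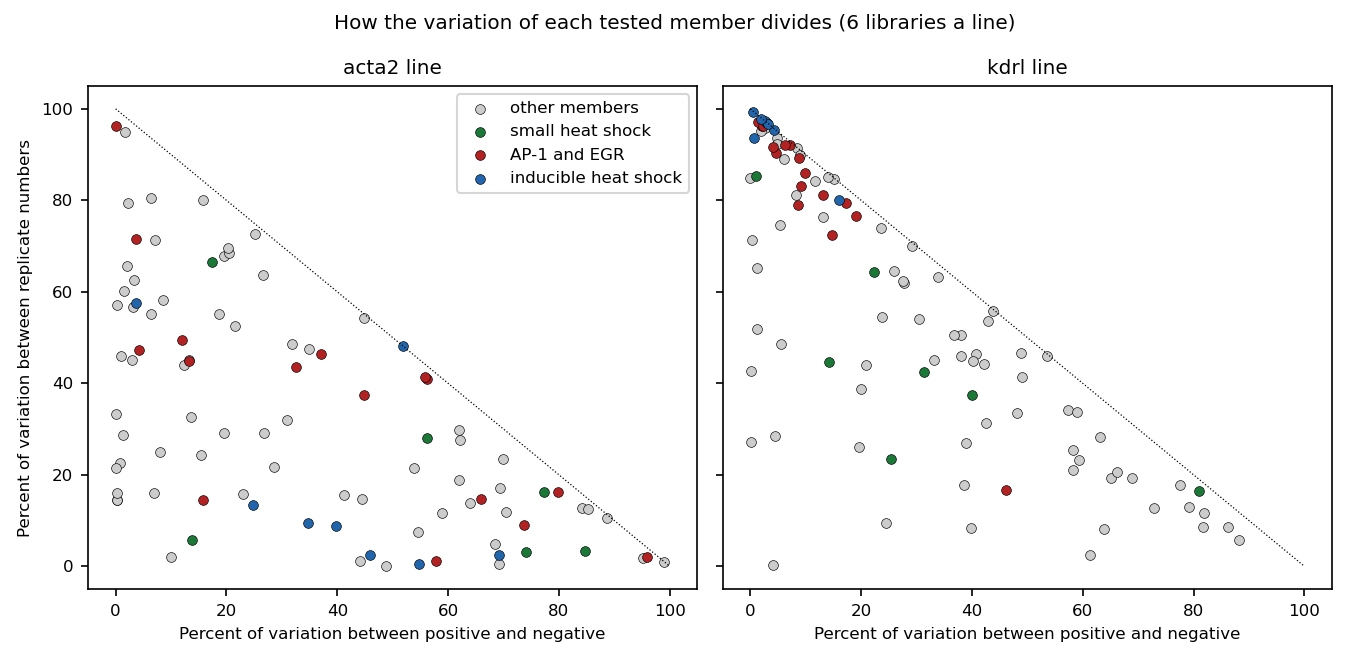
Percent of the variation of each tested member that lay between positive and negative cells (x axis) and between replicate numbers (y axis), in the acta2 and kdrl lines; each point is a gene over 6 libraries and the dotted line marks 100% in sum. In the kdrl line the AP-1 and EGR genes and the inducible heat shock genes gather at the upper left, with medians of 87.6% and 96.8% between numbers.

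The block takes the spread between numbers out of the error of the kdrl fit. fosl2 had 14999, 17403 and 992 normalized counts in kdrl positive libraries and 3316, 5426 and 650.1 in kdrl negative libraries. The positive library was the higher one in each pair, by 1.49 ± 0.34 with the block (adjusted p = 0.0286), against a standard error of 1.07 and an adjusted p of 0.420 without it. junba rose by 1.12 ± 0.31 with the block (adjusted p = 0.0499) and had an adjusted p of 0.625 without it. Without kdrl negative replicate 3 its unblocked difference had the opposite sign, -0.27 (adjusted p = 0.907). Of the 16 AP-1 and EGR genes 13 had a difference above 0 in the kdrl line, with a median of 0.64, beside 0.35 over all members and -0.05 over all genes tested. fosaa, egr2b and egr4 were the exceptions, at -0.63, -1.08 and -0.61, none of them called with or without the block.

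The sort effect was compared between lines by the difference of the differences, acta2 minus kdrl, in 12 libraries. Of 101 members tested, 2 were called with a higher and 1 with a lower effect in the acta2 line, 2.97% of the members, beside 6.11% of all genes tested (2.80% higher and 3.31% lower). DESeq2 called 8, beside 14.2% of all genes. hspb7 had a difference of 3.57 ± 0.93 (adjusted p = 0.0343), being higher in acta2 positive and lower in kdrl positive cells than in the negative cells of each line. Cardiac markers moved with it: 4 of 10 were called higher in this comparison, vmhc (3.47 ± 0.77 (adjusted p = 0.0148)), myl7 (4.63 ± 1.07 (adjusted p = 0.0184)), nppa (4.25 ± 1.0 (adjusted p = 0.0202)) and actc1a (2.13 ± 0.55 (adjusted p = 0.0321)), all 10 were above 0, and their part was not tested. In the kdrl line alone they summed to 34.99, 34.8 and 18.4 RPM in positive libraries, against 99.2, 85.2 and 131 RPM in negative libraries, and 2 of 10 fell. hspb11 had a difference of 3.02 ± 0.82 (adjusted p = 0.0415). hspa14 had a difference of -2.10 ± 0.48 (adjusted p = 0.0168), with 508, 445 and 351 normalized counts in acta2 positive and 617, 893 and 626 in acta2 negative libraries beside its higher level in kdrl positive cells.

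The hspa14 call was lost without acta2 negative replicate 2 (adjusted p = 0.0541) and kept without each of the other 11 libraries. hspb7 was kept without acta2 positive replicate 2 or 3 or kdrl positive replicate 1, and hspb11 without acta2 positive replicate 2 or kdrl positive replicate 3; without each of the other libraries both were lost, with adjusted p up to 0.0986 and 0.105. The count of calls was 0 without acta2 negative replicate 2 and 1 without acta2 positive replicate 1, acta2 negative replicate 1 or 3, or any one of the 3 kdrl negative libraries, beside 3.56% of all genes in the first of these fits and 3.73 to 5.26% in the others. With quantile normalization hspb11 was lost and hspa8 was called lower (-2.73, adjusted p = 0.0223), so the count stayed at 3, beside 6.89% of all genes. With the replicate number as a block 8 members were called, 3 higher and 5 lower, beside 8.12% of all genes (3.46% higher and 4.66% lower). junba (-2.70, adjusted p = 0.00514), junbb (-2.12, 0.0385), hspe1 (-1.93, 0.0230) and dnaja2 (-1.34, 0.0470) joined on the lower side and dnajb4 (3.17, 0.0278) on the higher side. Stage, fixation and library kit differ between these lines and cannot be told apart from cell type here.

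Between the acta2/foxc1b and acta2 lines limma called 0 of 98 members for a different sort effect, beside 0.00% of all genes. An unadjusted p under 0.05 was reached by 4 members and by 1169 of all 23438 genes. edgeR called 0, also beside 0.00%, with 3 members and 1780 of all genes at an unadjusted p under 0.05. DESeq2 called 1, hspb2, beside 239 of all 19900 genes it gave an adjusted p. It had 0, 1.16 and 3.15 normalized counts in acta2 positive and 10.01, 8.55 and 10.98 in acta2 negative libraries, lower in each positive library of that line, whereas it was higher in both acta2/foxc1b positive libraries. Its difference was 7.29 ± 1.32 (adjusted p = 0.143 in limma, 0.0380 with quantile normalization and 2.51e-05 in DESeq2). The skeletal muscle markers, whose sums in RPM lay high in the acta2/foxc1b positive libraries and low in the acta2 positive ones, moved in the same directions as hspb2. In the acta2 line the marker sums overlapped on the normalized scale, and the part of these markers was not tested.

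Related genes that are not members were read from the same fits. Of 38 other immediate early genes tested in the acta2 line 3 rose and none fell, beside 3.26% of all genes called higher: ctgfa (1.94 ± 0.32 (adjusted p = 0.0124)) and cyr61 (1.83 ± 0.41 (adjusted p = 0.0325)), matrix-associated genes induced by stretch and serum, and gadd45ab (1.15 ± 0.29 (adjusted p = 0.0493)), a DNA damage gene. Of 39 tested in the kdrl line 2 rose, beside 3.17% of all genes called higher: klf2a (1.84 ± 0.42 (adjusted p = 0.0315)), which responds to blood flow in endothelium, and dusp6 (1.53 ± 0.38 (adjusted p = 0.0419)), a phosphatase that limits ERK signaling. Of 21 co-chaperones and partners, 1 rose in the acta2 line, serpinh1b (1.97 ± 0.50 (adjusted p = 0.0474)), the collagen chaperone.

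Of 8 subunits of the cytosolic chaperonin ring, which folds actin and tubulin, cct4 fell in the acta2 line (-1.89 ± 0.36 (adjusted p = 0.0190)) and all 8 had differences below 0 there, while all 8 had differences above 0 in the kdrl line with none called. The difference of the differences, acta2 minus kdrl, was called below 0 for 7 of the 8, with cct4 at -3.35 ± 0.56 (adjusted p = 0.00259), cct5 at -2.09 ± 0.45 (adjusted p = 0.0116) and tcp1 at -2.41 ± 0.52 (adjusted p = 0.0128). ptges3b, an HSP90 co-chaperone, was called in the same direction (-2.16 ± 0.56 (adjusted p = 0.0316)), as was the early response gene myca (-2.73 ± 0.53 (adjusted p = 0.00666)). Of 4 myosin chaperones and alpha crystallins tested, smyd1b fell in the acta2 line (-1.80 ± 0.39 (adjusted p = 0.0283)), and of 21 endoplasmic reticulum stress genes none was called in any line. In the acta2/foxc1b line smyd1b lay the other way, at 1035 and 1219 normalized counts in positive and 440, 530 and 455 in negative libraries. Skeletal muscle sums in RPM moved in the same directions as smyd1b in both lines. They overlapped on the normalized scale in the acta2 line, and their part was not tested. In the acta2/foxc1b line limma called none of these lists' genes.

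The authors' deposited table called 4 of 97 members in the acta2 line, 3 of them higher, 12 of 97 in the acta2/foxc1b line, 8 of them higher, and 6 of 94 in the kdrl line, all higher, by its adjusted p under 0.05. Over all genes the authors' deposited table called 5.65%, 11.5% and 13.3% in these lines. In the authors' deposited table hspb8 had a log2 fold change of 1.81 in the acta2 line and hspb2 one of 4.52 in the acta2/foxc1b line, and hspa14 one of 1.16 in the kdrl line.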

How the data were processed

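RNA was sequenced from 17 libraries of sorted zebrafish cells. Per the labels' protocols, RNA was extracted with TRIzol; in both acta2 lines oligo dT primed the cDNA, which went through REPLI-g amplification into TruSeq libraries, and that of the fixed kdrl cells was made with TotalScript. The submitters' processing notes list bcl2fastq 2.14, CASAVA 1.8.2, featureCounts 1.5.2, DESeq2 1.20.0 and build GRCz11; which aligner and annotation were used is not given in the sources used here. The deposited signal values are read counts after division by 1 size factor a library, as the authors' DESeq2 columns scale them: all values gave back whole reads within 0.1 read (100%), on which edgeR called 1199 genes in the acta2 line, 0 in the acta2/foxc1b line and 1503 in the kdrl line. The authors scaled the 11 libraries of both acta2 lines together and the 6 kdrl libraries apart, so levels across lines are given in RPM. The authors also deposited, for each line, mean normalized counts, log2 fold changes and adjusted p-values; the score columns they deposited, standard errors and test statistics, were not analysed here.

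Because the deposited values are normalized, limma 3.58.1 (trend, R 4.3.3) on log2(value + 1) replaced a count test; a gene was tested if enough libraries to fill the smaller group reached a value of 10 in it, two-sided, with Benjamini-Hochberg adjustment over all of them and a call at adjusted p under 0.05. Each line was fitted alone. Alternatives were edgeR 4.0.16 and DESeq2 1.42.0 on the recovered reads, a pseudocount of 4, no filter, TMM and quantile normalization, a replicate block, all 11 libraries together and leaving out each library. Fitted log2 differences understate changes of low genes. Reads of amplified cDNA are not independent molecules. Libraries were grouped by their titles. In the kdrl line, deviations from the group means correlated between libraries of the same number at 0.475, 0.128 and 0.422 across genes, so the numbers were taken to pair them.

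The members and lists were chosen with earlier results of these data known. Named were the members called in a comparison, all small heat shock, inducible, AP-1 and EGR genes, the constitutive chaperones, the heat shock factors, and the 3 highest and lowest other dnaj and hspa genes of a line. The procedure was tested on simulated data with 200 changed genes and the same spread setting for every gene. A 4-fold change was recovered in 29.5% of them in the acta2 line, 15% in the acta2/foxc1b line and 32% in the kdrl line. For acta2 minus kdrl it was 0% and for acta2/foxc1b minus acta2 3%. A 16-fold change was recovered in 87 to 100%. The changed genes were drawn from well-counted genes, and no simulated library stood apart as acta2/foxc1b negative replicate 2 did. Nor did simulated libraries differ by replicate number, as those of the kdrl line did. These shares may thus not hold for low genes, for the acta2/foxc1b line, or for the AP-1, EGR and inducible heat shock genes of the kdrl line. There hspb2, at a log2 difference of 4.92, was not called (adjusted p = 0.153 in limma). A member that was not called is therefore not shown to be unchanged.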

Additional observations from a re-analysis of the deposited data

Results flagged for a closer look

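The sort effect of 3 members, positive minus negative, differed between the acta2 and kdrl lines by a test of the difference itself in limma. This was 2.97% of the members, below the 6.11% called over all genes tested. hspb7, a small heat shock gene of muscle, had a difference of 3.57 ± 0.93 on the log2 scale (adjusted p = 0.0343), higher in 3 of 3 acta2 positive libraries than in any acta2 negative one and lower in 3 of 3 kdrl positive libraries than in any kdrl negative one. Cardiac muscle markers moved with it, 4 of 10 being called in the same direction, and their part was not tested. hspb11 had a difference of 3.02 ± 0.82 (adjusted p = 0.0415), higher in 3 of 3 acta2 positive libraries and with groups that overlapped by 1 library in the kdrl line. hspa14, a ribosome-associated HSP70 gene, had a difference of -2.10 ± 0.48 (adjusted p = 0.0168), higher in 3 of 3 kdrl positive libraries than in any kdrl negative one and lower in 3 of 3 acta2 positive libraries. With each of the 12 libraries left out in turn, hspa14 was called in 11 fits, hspb7 in 3 and hspb11 in 2. Stage, fixation and library kit also differ between these lines, and cannot be told apart from the cell type.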

How the results depend on the processing

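Counts of called members moved with the processing. hspa4a and junba of the kdrl line, called with the block, were the only members called under a setting that had the opposite sign under another, at -0.02 without positive replicate 2 and -0.27 without negative replicate 3. The share of all genes called in the same setting is given in brackets. In the acta2 line 7 members were called (7.00%), against 11 with quantile normalization (8.05%), 12 with DESeq2 (15.0%) and 4 with the replicate block (5.08%). With all 11 libraries in one fit 1 was called (1.33%), and without a library in turn 0 to 6 (1.33 to 6.32%). In the acta2/foxc1b line 0 were called (0.0271%), against 9 with DESeq2 (7.89%), 3 with all 11 libraries (4.39%) and 0 to 4 without a library (0 to 3.57%). In the kdrl line 0 were called (5.96%), against 1 with a pseudocount of 4 (6.34%), 1 with TMM (6.40%) and 6 with DESeq2 (15.2%). With the replicate block 10 were called (13.5%), and without a library 0 to 4 (2.19 to 5.86%). For acta2 minus kdrl 3 were called (6.11%), against 8 with DESeq2 (14.2%), 8 with the replicate block (8.12%) and 0 to 4 without a library (3.56 to 6.74%). Quantile normalization also called 3 (6.89%), with hspa8 in place of hspb11. For acta2/foxc1b minus acta2 0 were called (0 of all 23438 genes). Quantile normalization called 1 (15 of all 23438 genes) and DESeq2 called 1 (239 of all 19900 genes). The cause of these moves was not tested. Over single members and settings, 7730 values kept their side of the threshold, 67 passed it newly and 60 lost it. Same-numbered libraries correlated at 0.0097, -0.023 and -0.014 in the acta2 line and at 0.144 and 0.056 in the acta2/foxc1b line, so the block there rests on the number alone; besides those counts and the values in the text, it changed no call. hspb2, hspb3, hspb6, hspb7, hspb12, hsf4, hsf5, dnajc5b and dnajc25 rest on few reads in some or all groups. hspb7 had 27, 10 and 3 reads in kdrl positive and 15, 14 and 12 in acta2 negative libraries. hspb2 had 0, 1 and 3 reads in acta2 positive and 11, 11 and 13 in acta2 negative libraries. hsf4 had 2 and 1 reads in acta2/foxc1b positive libraries.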
